A study of Mus musculus with 6 samples.

Results

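The clustered protocadherins are cell surface adhesion proteins encoded in alpha, beta and gamma gene clusters that lie side by side on mouse chromosome 18, the chromosome that also carries *Pou4f3*. Members were all gene symbols of the form *Pcdha*, *Pcdhac*, *Pcdhb*, *Pcdhga*, *Pcdhgb* or *Pcdhgc* followed by a number. This gave 57 symbols with 89 transcripts, of 51802 symbols in all, namely 13 alpha, 22 beta and 22 gamma members. They were followed in bulk RNA-seq of cochleae from mice at 2 months of age on the background labelled C57/BL6J, with 3 wildtype samples (replicates 3, 4 and 5) and 3 *Pou4f3(Δ/+)* samples (replicates 1, 2 and 3). *Pou4f3(Δ/+)* mice carry 1 wildtype allele and 1 knock-in allele with a small deletion and a C-to-T change, made in embryonic stem cells with a targeting vector from 129/sv DNA and bred in C57BL/6J. *Pou4f3* encodes a transcription factor of hair cells, whereas a whole cochlea also holds neurons, glia, bone, blood and connective tissue cells. The samples are labelled as separate, but nothing states that each came from separate animals, so p-values measure the spread between these samples. Summed counts ranged from 14295069 to 17696784 per sample.

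In the alpha and gamma clusters, each variable exon has its own promoter and encodes the extracellular domains of 1 isoform, and it is spliced to constant exons shared by the cluster. Beta genes have no constant exons, and each is complete in a single large exon. Neurons are known to choose variable promoters in a largely random fashion, with the help of CTCF and cohesin, and the resulting sets of isoforms let branches of the same cell recognise each other. The C-type members *Pcdhac1*, *Pcdhac2*, *Pcdhgc3*, *Pcdhgc4* and *Pcdhgc5* are known for a more regular, cell type-wide expression.

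In the GENCODE M21 annotation of GRCm38, the alpha cluster spans chr18:36930184-37187661, the beta cluster chr18:37264938-37524479 and the gamma cluster chr18:37661793-37841873, all on the plus strand. *Pou4f3* lies at chr18:42394539-42397249, 4.55 Mb beyond the end of the gamma cluster. The number of backcrosses is not stated, so which strain this region comes from in the *Pou4f3(Δ/+)* mice is not known, and its part in the values was not tested. The 3 alpha constant exons are 59, 89 and 2712 bases long and the 3 gamma constant exons 59, 89 and 1971 bases. Windows of 150 bases, the read length, from the longest protein-coding transcript of each member were looked up in all transcripts of all members. In the alpha cluster, a median of 47.1% of a transcript's windows occurred in 1 member and 52.2% in 10 or more. In the gamma cluster the medians were 56.8% and 43.1%. In the beta cluster the median transcript shared no window with another member. Reads from constant exons do not name the isoform, so alpha and gamma counts depend on how the authors' counting assigned these reads. Of the transcript counts above 0, 96.8% in the alpha, 97.9% in the gamma and 22.9% in the beta cluster lay more than 0.01 from a whole number, and 74.4% over all transcripts.

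The gamma cluster held most of the family's RNA in the cochlea. Over the 6 samples it took 72.6% of the family's counts (range 70.0% to 75.8%), the beta cluster 17.5% (15.3% to 19.5%) and the alpha cluster 9.90% (8.95% to 10.7%). Per length, in FPKM (fragments per kilobase of transcript, scaled to each sample's counts), 19 of 57 members had a mean of at least 1, 2 had at least 5 and 3 were under 0.1. Of the 19, 14 were gamma, 4 beta and 1 alpha. The plot of levels by sample shows this order. The profiles of the members were alike in all samples, with a Spearman correlation across members of 0.890 to 0.938 between samples of a genotype and 0.887 to 0.932 between genotypes.

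**Figure D1:**
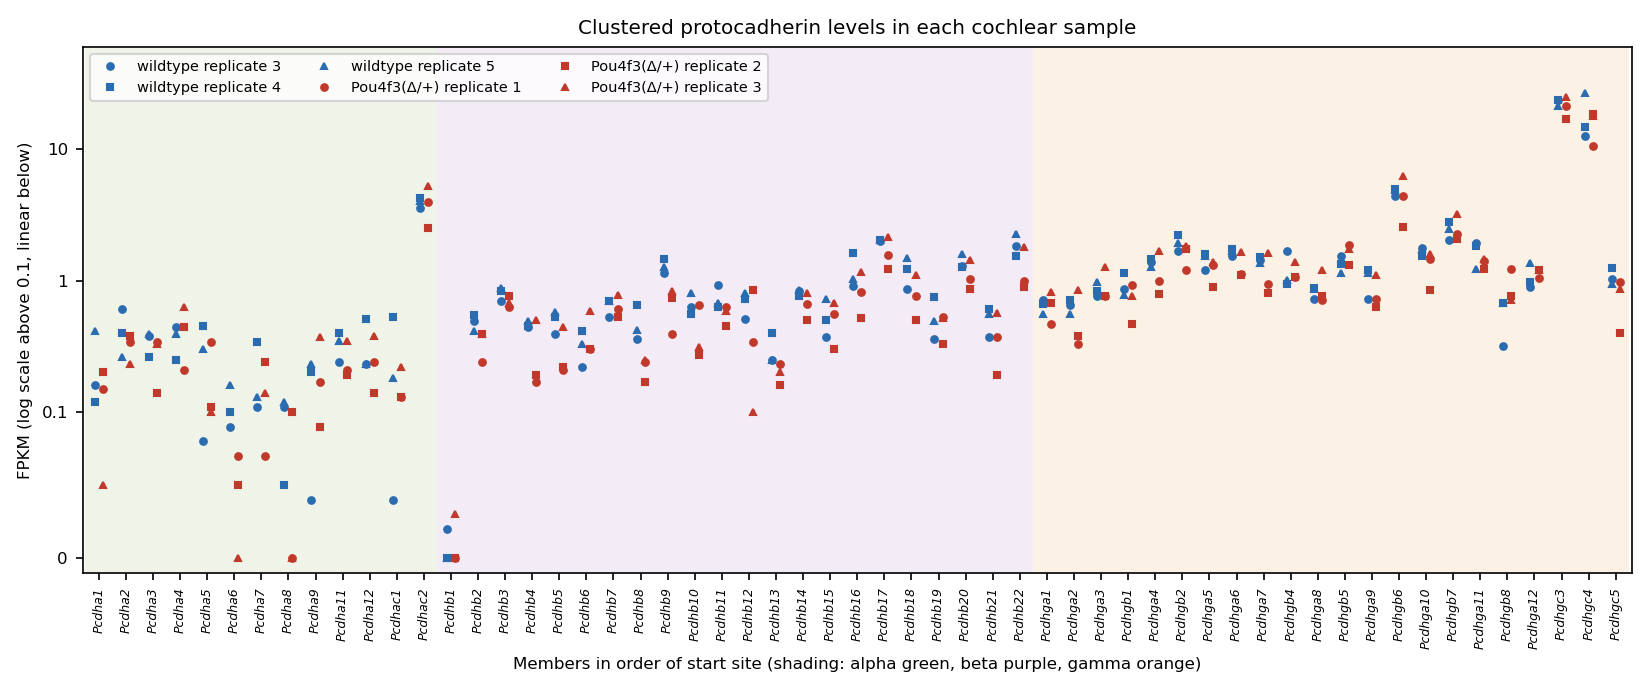
FPKM of each of the 57 members (horizontal axis, in order of start site) in each of the 6 samples (vertical axis, log scale above 0.1 and linear below). Blue points are wildtype and red points *Pou4f3(Δ/+)* samples, and *Pcdhgc3*, *Pcdhgc4*, *Pcdhgb6* and *Pcdhac2* stand above the rest.

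*Pcdhgc3* (ENSMUSG00000102918) had the highest mean level over the 6 samples, although the symbol *Pcdhgc4* was above it in wildtype replicate 5 and *Pou4f3(Δ/+)* replicate 2. It measured 23.8, 23.6 and 21.4 FPKM in wildtype replicates 3, 4 and 5, and 21.4, 16.9 and 25.1 FPKM in *Pou4f3(Δ/+)* replicates 1, 2 and 3. The groups overlapped, and the log2 fold change, given throughout as *Pou4f3(Δ/+)* minus wildtype, was -0.14 (standard error 0.12). *Pcdhgc3* overlaps the antisense gene *BC037039* over 28.4% of its exonic bases, and strand was not stated for these libraries, so reads of the pair cannot be told apart there.

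*Pcdhgc4* came next by symbol, at 12.5, 14.7 and 26.8 FPKM in wildtype and 10.6, 18.4 and 18.02 FPKM in *Pou4f3(Δ/+)* samples. This total rested mostly on ENSMUST00000195239, a transcript of 2272 bases of which 93.3% are constant exon. It measured 11.5, 13.6 and 25.5 FPKM in wildtype and 9.48, 17.6 and 16.7 FPKM in *Pou4f3(Δ/+)* samples. The full-length transcript ENSMUST00000066140, which holds the variable exon, was at 1.05, 0.91 and 1.20 FPKM in wildtype and 0.81, 0.67 and 0.68 FPKM in *Pou4f3(Δ/+)* samples. The level of the *Pcdhgc4* variable exon was therefore far below that of the symbol. The ranges of the full-length transcript did not overlap, and this transcript was looked at after its values were seen. ENSMUST00000193222, a *Pcdhgc4* transcript annotated as a retained intron, holds no constant exon. Its mean was higher in *Pou4f3(Δ/+)*, at 0.26, 0.14 and 0.68 FPKM against 0, 0.18 and 0.07 FPKM in wildtype, and its ranges overlapped. How reads were divided between these transcripts was not tested, so the ranges of the full-length one do not settle the level of the variable exon by genotype.

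**Figure D2:**
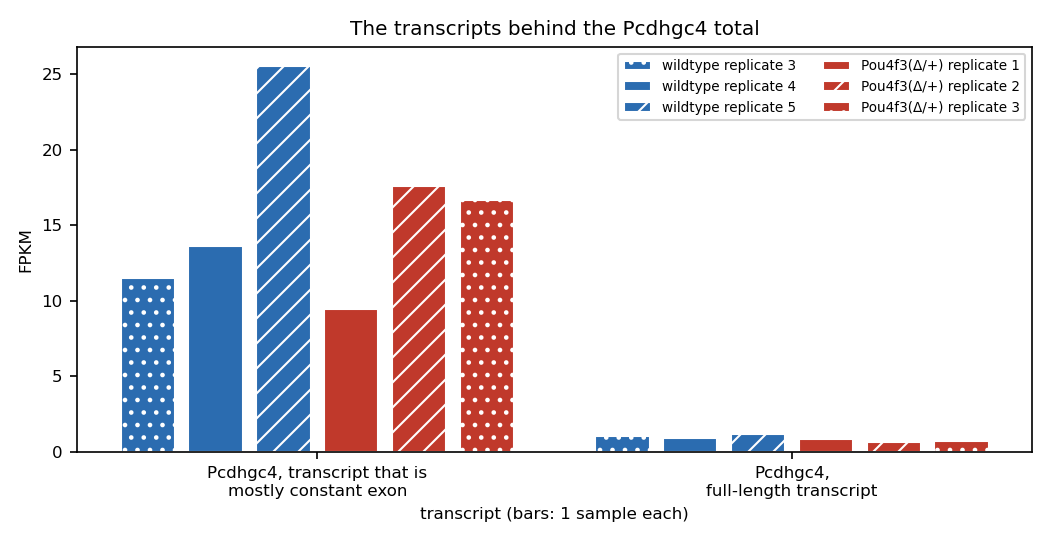
FPKM (vertical axis) of the *Pcdhgc4* transcript that is mostly constant exon and of the full-length *Pcdhgc4* transcript (horizontal axis), 1 bar per sample, blue for wildtype and red for *Pou4f3(Δ/+)*. The first lies between 9.48 and 25.5 and the second between 0.67 and 1.20.

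Without ENSMUST00000195239, the C-type members held 40.4% of the family's counts instead of 46.2%, and *Pcdhgc3* alone held 30.4%. *Pcdhac2*, the C-type member at the end of the alpha cluster, measured 3.57, 4.28 and 4.03 FPKM in wildtype and 3.95, 2.51 and 5.22 FPKM in *Pou4f3(Δ/+)* samples. It was the sole alpha member with a mean over 1 FPKM, and its log2 fold change was -0.03 (standard error 0.22). *Pcdhgc5* was lower in each *Pou4f3(Δ/+)* sample than in any wildtype sample by CPM, counts scaled to the library size (5.04, 6.31 and 4.99 against 4.98, 2.18 and 4.67), with the nearest samples almost equal. *Pcdhac1* was low and variable, from 0.04 to 0.53 FPKM.

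Among the other gamma members, *Pcdhgb6* was highest at 4.40, 4.99 and 4.93 FPKM in wildtype and 4.42, 2.56 and 6.24 FPKM in *Pou4f3(Δ/+)* samples. *Pcdhgb7* followed with a mean of 2.47 FPKM over the 6 samples and *Pcdhgb2* with 1.77 FPKM. The gamma A members were more even, from 0.58 to 1.51 FPKM, with *Pcdhga11* (1.51), *Pcdhga10* (1.49) and *Pcdhga6* (1.48) too close to be ordered within the spread of the samples. *Pcdhga10* and *Pcdhga11* share 55.2% and 29.0% of their exonic bases with the antisense gene *Gm26672*.

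In the beta cluster the levels ran from 0.00833 FPKM for *Pcdhb1* to 1.84 FPKM for *Pcdhb17*. *Pcdhb17* measured 2.00, 2.04 and 2.04 FPKM in wildtype and 1.58, 1.23 and 2.15 FPKM in *Pou4f3(Δ/+)* samples. *Pcdhb20* measured 1.30, 1.28 and 1.60 FPKM in wildtype and 1.03, 0.87 and 1.44 FPKM in *Pou4f3(Δ/+)* samples. Beta members nearer the end of the cluster tended to have the higher levels, with a Spearman correlation of start site and mean FPKM of 0.56 over 22 members (0.37 to 0.66 in single samples). It was 0.42 over the 19 gamma A and B members (0.18 to 0.61). Over the 11 alpha members outside the C-type it was -0.25 and its sign differed between samples (-0.56 to 0.28). These members share libraries, and the values are descriptions.

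The alpha members outside the C-type were all under 0.4 FPKM on average, with *Pcdha4* (0.393) and *Pcdha2* (0.370) the highest. *Pcdha4* measured 0.44, 0.25 and 0.39 FPKM in wildtype and 0.21, 0.44 and 0.63 FPKM in *Pou4f3(Δ/+)* samples. Their counts were small (median of the tested ones 22.9 per sample), which limits any comparison between genotypes. The symbol *Pcdha11* holds 6 transcripts, among them full-length ones from separate variable exons, so its value is no measure of a single exon.

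The comparison of *Pou4f3(Δ/+)* with wildtype asked whether the family moved with the genotype. No member passed the test: 0 of 54 tested members had an adjusted p under 0.05 in edgeR's quasi-likelihood test, as did 0 of the 17136 genes tested (0.0%). Without adjustment, 3 members had p under 0.05, all lower in *Pou4f3(Δ/+)* and all in the beta cluster, against 4.14% of all genes in that direction and 7.64% in either. Without *Pou4f3(Δ/+)* replicate 3 this count was 16 of 54 members, 15 of them lower, where 17.4% of all genes had p under 0.05 and 8.69% were lower with such a p. The members *Pcdha6*, *Pcdha8* and *Pcdhb1* had too few counts to be tested. By sign alone, 44 tested members had a log2 fold change below 0 and 10 above, with a median of -0.32, where 50.6% of all genes were below 0 with a median of -0.003. The signs rested on replicates 1 and 2 of *Pou4f3(Δ/+)*. With both left out, so that replicate 3 alone stood for the genotype and was assumed to vary like the others, 30 of 56 tested members were below 0 and the median was -0.04. That pair was chosen after its values were seen.

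**Figure D3:**
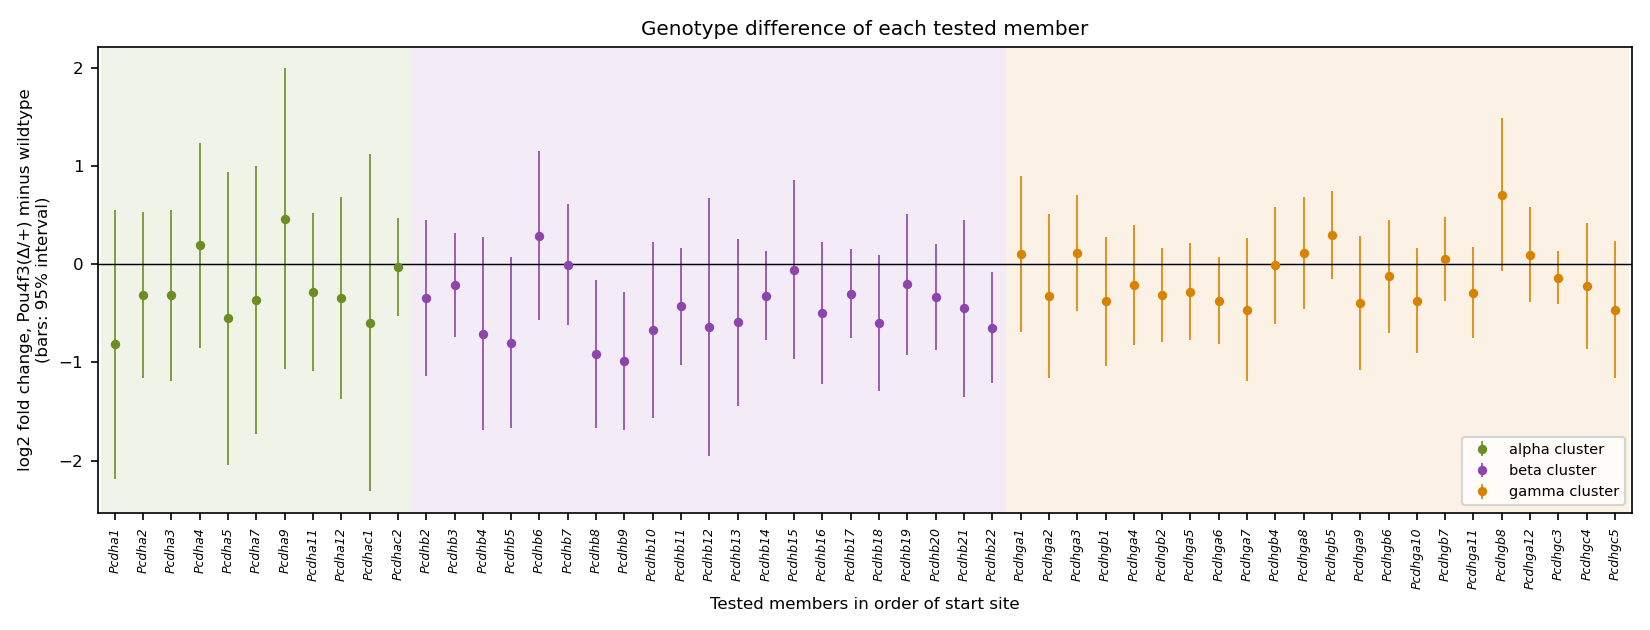
Log2 fold change of each of the 54 tested members (vertical axis, *Pou4f3(Δ/+)* minus wildtype, bars for the 95% interval) in order of start site (horizontal axis), coloured by cluster. Of the beta members 20 of 21 lie below 0, and the interval leaves out 0 for *Pcdhb8*, *Pcdhb9* and *Pcdhb22*, with no adjustment for the number of genes.

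The beta cluster had the lowest values relative to wildtype. Of its tested members 20 were below 0 and 1 above, with a median of -0.45. Its summed CPM was 67.6, 79.3 and 81.6 in wildtype and 54.6, 44.8 and 69.0 in *Pou4f3(Δ/+)* samples, a *Pou4f3(Δ/+)* mean of 73.7% of wildtype. *Pou4f3(Δ/+)* replicate 3 lay above wildtype replicate 3, so the groups overlapped. In bulk tissue, fewer cells of a type and less RNA per cell cannot be told apart.

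*Pcdhb9* (ENSMUSG00000051242, chr18:37400855-37403909) had the lowest ratio. It measured 3.5, 4.44 and 3.87 CPM in wildtype and 1.19, 2.29 and 2.49 CPM in *Pou4f3(Δ/+)* samples, with no overlap. On the log2 scale the difference was -0.99 ± 0.31 (standard error, 95% interval -1.69 to -0.29), with an adjusted p = 0.643 in edgeR's quasi-likelihood test. *Pcdhb8* (ENSMUSG00000045876) measured 1.22, 1.53 and 1.41 CPM in wildtype and 0.792, 0.590 and 0.807 CPM in *Pou4f3(Δ/+)* samples, on a mean of 17 counts per sample. This gave a log2 difference of -0.91 ± 0.33, and edgeR's adjusted p was again 0.643. *Pcdhb22* (ENSMUSG00000073591), the last beta gene, measured 8.61, 9.07 and 12.005 CPM in wildtype and 6.36, 4.33 and 8.34 CPM in *Pou4f3(Δ/+)* samples. The log2 difference was -0.65 ± 0.25 with the same adjusted p of 0.643 from edgeR.

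By CPM, all *Pou4f3(Δ/+)* samples were below all wildtype samples for 6 tested members, against 6.59% of all genes, and above them for 1, against 6.07%. The 6 were *Pcdhb8*, *Pcdhb9*, *Pcdhb11*, *Pcdhb13*, *Pcdhb22* and *Pcdhgc5*. In FPKM the ranges of *Pcdhb11*, *Pcdhb22* and *Pcdhgc5* overlapped or touched, with *Pcdhb22* at 1.82, 1.54 and 2.26 FPKM in wildtype and 0.99, 0.90 and 1.81 FPKM in *Pou4f3(Δ/+)* samples. *Pcdhb11* was at 4.14, 2.78 and 2.99 CPM against 2.77, 2.03 and 2.56 CPM, where the nearest samples were almost equal. *Pcdhb13* was at 0.933, 1.46 and 0.938 CPM against 0.848, 0.590 and 0.740 CPM. The member above was *Pcdhgb8*, at 1.51, 3.08 and 3.14 CPM in wildtype and 5.64, 3.63 and 3.23 CPM in *Pou4f3(Δ/+)* samples, a log2 difference of 0.71 ± 0.34 (edgeR's adjusted p = 0.649). All counts of *Pcdhgb8* were on ENSMUST00000195764, annotated as a polymorphic pseudogene. Its protein-coding transcript ENSMUST00000208907 had 0 counts in every sample.

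In the gamma cluster 15 members were below 0 and 7 above, with a median of -0.21, and the sum was 272, 286 and 297 CPM in wildtype and 243, 222 and 306 CPM in *Pou4f3(Δ/+)* samples. The median was -0.29 for gamma A (8 below, 4 above) and -0.01 for gamma B (4 below, 3 above). In the alpha cluster 9 tested members were below 0 and 2 above, with sums of 33.8, 43.4 and 39.95 CPM in wildtype and 34.9, 26.2 and 45.0 CPM in *Pou4f3(Δ/+)* samples. *Pcdhac2* held 61.8% of the alpha counts on average. The alpha members outside the C-type summed to 12.5, 15.6 and 15.1 CPM in wildtype and to 10.9, 10.5 and 13.5 CPM in *Pou4f3(Δ/+)* samples. This was a *Pou4f3(Δ/+)* mean of 80.9% of wildtype, with overlap. The 5 C-type members were all below 0, from -0.60 for *Pcdhac1* to -0.03 for *Pcdhac2*, but *Pcdhac1*, *Pcdhac2* and *Pcdhgc4* changed sign when single samples were left out. In each cluster *Pou4f3(Δ/+)* replicate 2 was lowest, and *Pou4f3(Δ/+)* replicate 3 was the highest of all samples for alpha and gamma.

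**Figure D4:**
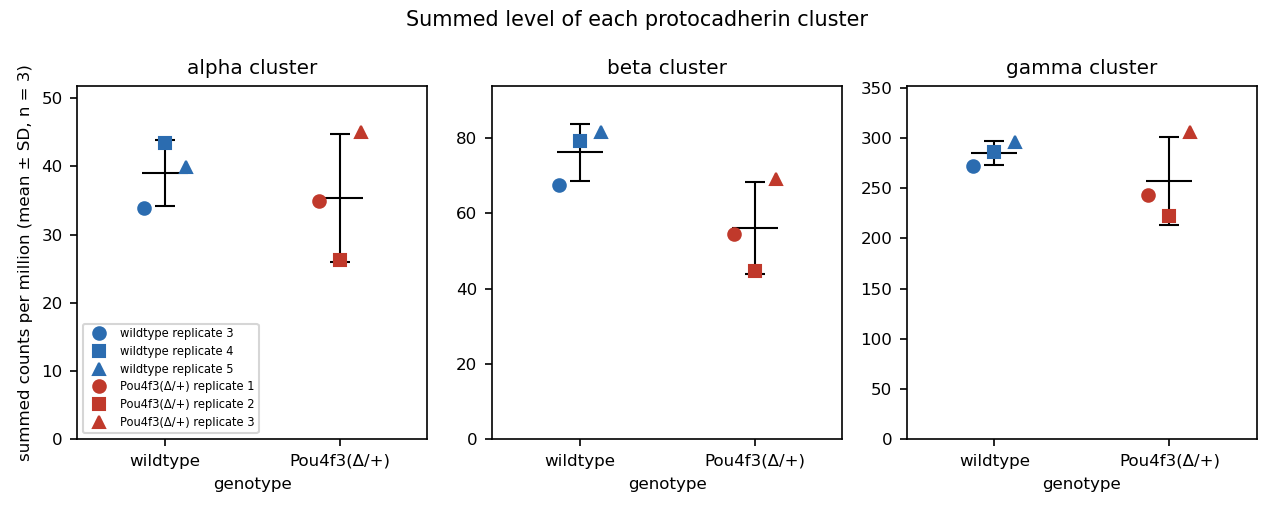
Summed CPM of the alpha, beta and gamma clusters (vertical axes from 0) by genotype (horizontal axis), 1 point per sample, with mean and SD (n = 3). *Pou4f3(Δ/+)* replicates overlap wildtype in every cluster, and beta means are 76.1 in wildtype and 56.1 in *Pou4f3(Δ/+)*.

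As a share of the family's counts, which does not depend on library scaling, the beta cluster held 18.1%, 19.4% and 19.5% in wildtype and 16.4%, 15.3% and 16.4% in *Pou4f3(Δ/+)* samples. These ranges did not overlap, nor did they in FPKM (18.1% to 19.2% against 14.6% to 16.0%) or without ENSMUST00000195239 (19.4% to 22.7% against 17.6% to 18.03% of counts). The gamma B share of counts was 15.7%, 16.0% and 14.6% in wildtype and 18.2%, 16.2% and 17.4% in *Pou4f3(Δ/+)* samples, but the groups overlapped in FPKM. No test was made of these shares.

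Markers of other cells moved with the samples. The 12 neuron markers summed to 2486, 2743 and 2626 CPM in wildtype and to 2241, 2029 and 2737 CPM in *Pou4f3(Δ/+)* samples, and 11 of them had a log2 fold change below 0. The 9 glia markers summed to 3100, 3612 and 3294 CPM and to 2490, 2589 and 3851 CPM. *Pou4f3(Δ/+)* replicates 1 and 2 were lowest in both, as they were in the beta sum. The 9 B cell markers summed to 357, 375 and 334 CPM in wildtype and to 590, 655 and 385 CPM in *Pou4f3(Δ/+)* samples, and all 9 were above 0. The 5 red cell markers, all above 0 as well, summed to 9156, 8584 and 7933 CPM in wildtype and to 10798, 12167 and 8449 CPM in *Pou4f3(Δ/+)* samples. In both of these lists *Pou4f3(Δ/+)* replicates 1 and 2 were the highest samples. The 10 hair cell markers, at 221 to 240 CPM in wildtype and 222 to 249 CPM in *Pou4f3(Δ/+)* samples, overlapped. By gene, edgeR's p without adjustment was under 0.05 for *Uchl1* among the neuron markers (log2 difference -0.35), for *Phex* among the bone markers (-0.22) and for *Slc4a1* among the red cell markers (0.37). It was also under 0.05 for the B cell genes *Cd79a*, *Cd79b*, *Vpreb1*, *Vpreb3*, *Blnk*, *Pax5* and *Igll1*, at 0.44 to 1.88. The highest hair cell, fibrocyte and endothelial genes were at 0.06 (*Pvalb*), -0.13 (*Ocm*), -0.17 (*Coch*), 0.07 (*Otos*), -0.18 (*Emcn*) and 0.16 (*Pecam1*). None of these genes had an adjusted p under 0.05. No list had a marker at 0 in every sample. The part of these cells in the protocadherin values was not tested.

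Set against the neuron markers, the gamma and alpha ranges overlapped between the genotypes and the beta ranges did not. Per 1000 counts of neuron markers, gamma held 109, 104 and 113 counts in wildtype and 108, 109 and 112 in *Pou4f3(Δ/+)* samples. Alpha held 13.6, 15.8 and 15.2 against 15.6, 12.9 and 16.5. Beta held 27.2, 28.9 and 31.1 against 24.4, 22.1 and 25.2, with no overlap. Per 1000 counts of glia markers the beta ranges overlapped (21.8, 21.95 and 24.8 against 21.9, 17.3 and 17.9). These ratios were chosen after the values were seen and are descriptions.

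**Figure D5:**
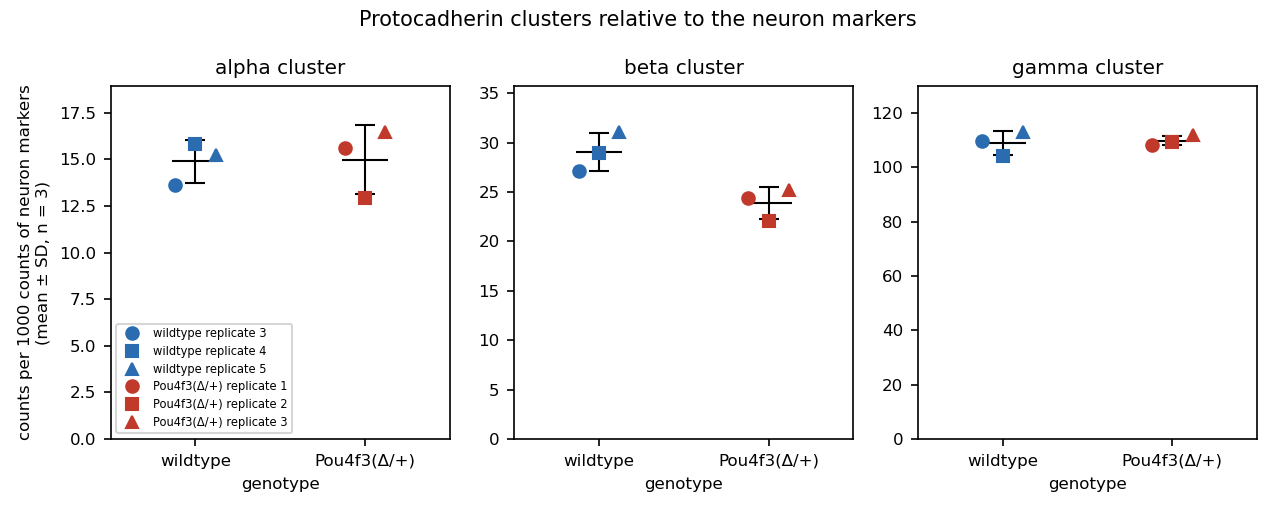
Counts of the alpha, beta and gamma clusters per 1000 counts of the 12 neuron markers (vertical axes from 0) by genotype (horizontal axis), 1 point per sample, with mean and SD (n = 3). Beta values are 27.2 to 31.1 in wildtype and 22.1 to 25.2 in *Pou4f3(Δ/+)*, while alpha and gamma ranges overlap.

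Genes known to act on the clusters were also read. Of 11 genes for CTCF, cohesin and their loaders and regulators, 0 passed the test, and all 11 had log2 fold changes above 0, with a median of 0.10, where 49.4% of all genes were above 0. Their summed CPM was 2133, 2199 and 2073 in wildtype and 2422, 2266 and 2221 in *Pou4f3(Δ/+)* samples, with no overlap. For 5 of the 11, *Rad21*, *Smc3*, *Stag2*, *Nipbl* and *Pds5a*, all *Pou4f3(Δ/+)* samples lay above all wildtype samples, against 6.07% of all genes. These 5 are named for their ranges, and no test was made of the list. *Nipbl*, the cohesin loader, had a value of 0.20 ± 0.08 (edgeR's adjusted p = 0.643). Of 12 genes for silencing by DNA methylation and chromatin, which include *Smchd1*, 0 passed and 7 were above and 5 below 0, with values of 0.06 for *Trim28* and 0.09 for *Dnmt1*. Of 19 genes for protocadherin partners, processing and signalling, 0 passed, with values of -0.01 for *Rac1* and 0.09 for *Adam10*, the protease that sheds these proteins.

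Of 11 tested protocadherins outside the clusters, 0 passed, with 5 below and 6 above 0 and a median of 0.01. *Pcdh7* and *Pcdh1*, the highest of them, had values of -0.07 and 0.01. Of 8 tested genes around the clusters, 0 passed, and 3 were below and 5 above 0. *Hars*, a histidyl-tRNA synthetase gene beside the alpha cluster, was at 0.19 ± 0.08 on the log2 scale (edgeR's adjusted p = 0.643).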

How the data were processed

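RNA from whole cochleae was sequenced as paired-end reads in 6 samples. The authors deposited, per transcript, expected counts (estimates, not normalized) and FPKM, besides a length. The aligner and counter are not given in the sources used here. The submitters' processing notes name mm8 and DESeq2. The files hold no coordinates, and 99.5% of the 128603 transcript identifiers were found in GENCODE M21 (GRCm38), from which all positions come. The deposited FPKM of members matched values recomputed from counts and spliced lengths (ratio 0.991 to 1.01). All sample columns were used.

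Expected counts were rounded after summing per symbol. edgeR 4.0.16 (R 4.3.3) was run on all 6 samples with filterByExpr (minimum count 10, minimum total 15), TMM and the quasi-likelihood test, without covariates, with Benjamini-Hochberg adjustment over 17136 genes. Cluster sums used counts scaled by TMM library sizes (CPM). The standard error is the log2 fold change over the square root of F. Intervals and counts cover counting error and sample spread as far as 3 samples show it. In a simulation of this comparison with 17136 genes, the test called 49% of genes changed 1.5-fold, 59.6% at 2-fold and 92.9% at 4-fold, and 20 of 16717 unchanged genes. The changed genes were drawn at random from all tested genes, whose median count was 369, against 55.5 for the tested members. Genes were also simulated as independent of each other. These rates therefore do not give the share of changed members that the test would call.

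Alternatives were DESeq2 1.42.0, other scalings and filters, limma 3.58.1 on log2 FPKM (pseudocount 0.5, 0.1 or 1), a test per transcript and each sample left out. Named members were the C-type, the 3 highest by mean FPKM in the alpha, beta, gamma A and gamma B groups, those with p under 0.05, and those with ranges that do not overlap and a mean count of at least 10; from each list, genes with p under 0.05 or otherwise the 2 highest. Some items that this rule selects are not reported here. Members and lists were chosen with earlier results of these data known. Python 3.11.15, pandas 2.3.3 and matplotlib 3.10.9 were used. No sequence is printed.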

Additional observations from a re-analysis of the deposited data

How the results depend on the processing

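No member had an adjusted p under 0.05 in any alternative, those chosen after seeing the data included. The lowest adjusted p of a member was 0.0893, without *Pou4f3(Δ/+)* replicate 3, in edgeR's quasi-likelihood test. The number of all genes called, 0 in the fit reported, was 64 with DESeq2, 9 without a filter, 1 with limma on log2(FPKM + 0.1), 6 without *Pou4f3(Δ/+)* replicates 1 and 2, and 0 to 193 with each sample left out. Of 21 named members, 11 kept their sign in every setting. Signs turned without wildtype replicate 3 for *Pcdha2* (0.050) and *Pcdhgb7* (-0.06), without wildtype replicate 4 for *Pcdha4* (-0.01), *Pcdhac1* (0.56) and *Pcdhac2* (0.03), without wildtype replicate 5 for *Pcdhgc4* (0.17), without *Pou4f3(Δ/+)* replicate 2 for *Pcdhac2* (0.20) and *Pcdhgb6* (0.14), without *Pou4f3(Δ/+)* replicate 3 for *Pcdha4* (-0.32) and *Pcdhgb7* (-0.13), and without *Pou4f3(Δ/+)* replicates 1 and 2 for *Pcdhac2* (0.38), *Pcdhb17* (0.065), *Pcdhb20* (0.020), *Pcdhgb6* (0.36) and *Pcdhgc3* (0.065). With each sample left out, the log2 fold change ran from -0.57 to 0.050 for *Pcdha2*, -0.32 to 0.55 for *Pcdha4*, -1.13 to 0.56 for *Pcdhac1*, -0.28 to 0.20 for *Pcdhac2*, -0.43 to 0.14 for *Pcdhgb6*, -0.13 to 0.16 for *Pcdhgb7* and -0.41 to 0.17 for *Pcdhgc4*.

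The log2 ratio of summed CPM, with each sample left out, ran from -0.35 to 0.03 for alpha, -0.62 to -0.30 for beta, -0.29 to -0.05 for gamma and -0.29 to -0.07 for the C-type members. Without *Pou4f3(Δ/+)* replicates 1 and 2 it was 0.21, -0.14 and 0.10 for alpha, beta and gamma. With all samples kept, the log2 ratio of counts relative to the glia markers was 0.031, -0.26 and 0.032 for alpha, beta and gamma. The alpha and gamma shares were 7.58% and 75.4% of FPKM. Without the *Pcdhgc4* transcript that is mostly constant exon, the alpha, beta and gamma shares were 10.96%, 19.4% and 69.6% of counts. With each sample left out, the shares ran from 9.74% to 10.1%, 17.1% to 17.97% and 71.9% to 73.1%. The cause of these differences was not tested. No paired analysis was possible because nothing states which samples, if any, form pairs. The genotypes share only replicate number 3, and a shared number is not said to mark a pair. The number of counts limits single members most in the alpha cluster, where the median tested member had a mean of 22.9 counts per sample.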
